A study of Canis lupus familiaris with 4 samples.

Results

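The 6 genes followed here in dog kidney cells sense oxygen for the HIF transcription factor or hold it back: VHL, EGLN1, EGLN2, EGLN3, HIF1AN and CITED2. They were chosen by symbol, and every probe set that the platform annotation gives to 1 of these symbols was taken, which gave 11 of the 42924 probe sets on the array. EGLN2 had 3 probe sets, VHL, EGLN1 and EGLN3 had 2 each, and HIF1AN and CITED2 had 1 each.

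In this pathway the HIF alpha subunits are made all the time and are removed while oxygen is present. The EGLN enzymes, also called PHDs, use oxygen, iron and 2-oxoglutarate to hydroxylate prolines of HIF alpha, and VHL, the substrate receptor of a ubiquitin ligase, binds the hydroxylated protein and marks it for the proteasome. HIF1AN, also called FIH, hydroxylates an asparagine and so blocks binding of the coactivators CBP and p300, for which CITED2 competes with HIF. EGLN1, EGLN3 and CITED2 are themselves widely known as genes that HIF turns on, which makes a feedback loop.

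The cells were MDCKII, an established epithelial line from dog kidney, and RNA of each culture was hybridised to 1 Affymetrix array. The 4 arrays are labelled HIF1A WT in normoxia, HIF1A KD (knockdown) in normoxia, HIF1A WT in hypoxia and HIF1A KD in hypoxia. All cultures were first kept for 24 h in normoxia and then for another 24 h in normoxia or hypoxia, so the comparisons ask how the oxygen label and the HIF1A label go with expression. The way the knockdown was made, whether it was a clone, and the oxygen level are not stated in the labels. With 1 array per group no value has a replicate, which limits precision to what single arrays give. Because whole cultures were measured, fewer cells with a transcript and less of it per cell cannot be told apart.

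The labels were checked first against HIF1A, the targeted gene. Its brightest probe set read 3651 in the array labelled WT normoxia, 3435 in KD normoxia, 675 in WT hypoxia and 625 in KD hypoxia. A dimmer one read 135, 155, 27.6 and 21.6 in the same order, with both arrays labelled hypoxia below the floor. A further one stayed below the floor throughout. HIF1A thus differed strongly by the oxygen label and hardly by the knockdown label (KD lower by 0.09 in normoxia and 0.11 in hypoxia on the log2 scale), so the knockdown is not borne out and all directions below are those of the labels. If the arrays labelled KD normoxia and WT hypoxia changed places, a labelled genotype difference would be read as an oxygen difference and the reverse. Each array's own values would stay as given. The brightest HIF1A probe set would then read 3651 and 3435 in the WT arrays and 675 and 625 in the KD arrays. Whether the arrays changed places was not tested. Median intensities lay between 45.6 and 47.1 on the 4 arrays. Of 13 markers of kidney epithelium, 10 were above the floor in all 4 arrays. The summed intensities of all 13 were 32714 in WT normoxia, 32597 in KD normoxia, 34391 in WT hypoxia and 34622 in KD hypoxia. EPCAM and KRT18 made up most of these sums, and single markers varied more, CLDN3 by 1.98 times between its lowest and highest array (highest in KD normoxia), CLDN1 by 1.79 times and ESRP1 by 1.54 times. The limma hypoxia term called 4 of these markers (2 higher, 2 lower) and its genotype term 2 (1 each way), and their part in the results below was not tested. The probe sets of CDH1, CLDN2 and PAX8 stayed below the floor in every array. The 7 fibroblast markers summed to between 125 and 139, the 4 leukocyte markers to between 106 and 149 and the 4 endothelial markers to between 176 and 267, the last led by CDH5 (104 to 178). Of these, PDGFRA (49 to 60) and KDR (47 to 66) were, like CDH5, above the floor in all 4 arrays. PTPRC was above it in WT normoxia (69) and KD hypoxia (62), and CSF1R in WT hypoxia (47). The floor is the median of all values, an intensity of 46.3, and a probe set entered counts and tests if its highest value reached it.

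Of the 11 member probe sets, 9 passed that filter. There were 6 above the floor in all 4 arrays, 1 (VHL) in 3 arrays and 2 (both of EGLN3) in KD normoxia only, so that EGLN3 passed through the array in which it was highest. A second EGLN1 probe set stayed below the floor throughout, and the dimmest EGLN2 probe set was listed at 1 in every array.

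Of the prolyl hydroxylases, EGLN1 (on its brighter probe set) and EGLN3 spanned more between the arrays than the other members did. EGLN1 (PHD2), the main hydroxylase of HIF1A in normoxia, read 333 in the array labelled WT normoxia, 686 in KD normoxia, 343 in WT hypoxia and 369 in KD hypoxia on its brighter probe set. Its level in KD normoxia stood apart, at 2.06 times that in WT normoxia, and the other 3 arrays lay close together. On the log2(intensity + 16) scale, which is used for all differences and understates those of dim probe sets, the 2 normoxia arrays differed by 1.01 (labelled KD minus WT) and the 2 hypoxia arrays by 0.10. The WT pair (labelled hypoxia minus normoxia) differed by 0.04 and the KD pair by -0.87. The dimmer EGLN1 probe set gave 35.6, 45.1, 27.3 and 25.9 for these arrays, again highest in KD normoxia, but its other 3 arrays came in another order and none of its values reached the floor.

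EGLN3 (PHD3), a strongly hypoxia-inducible hydroxylase in many cell types, reached the floor in KD normoxia alone. Its dimmer probe set read 12.9 in WT normoxia, 89.8 in KD normoxia, 19.6 in WT hypoxia and 24.0 in KD hypoxia. The brighter one read 33.8, 101, 25.7 and 16.1 in the same order. Both put KD normoxia highest, and they disagree on the order of the 3 dim arrays. Labelled KD minus WT in normoxia was 1.87 and 1.23, and labelled hypoxia minus normoxia in KD was -1.40 and -1.86. Since 1 side of each of these differences lies below the floor, their direction is given but their size is not measured. In the remaining comparisons both sides were below the floor.

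EGLN2 (PHD1), a nuclear hydroxylase that is usually not induced by hypoxia, varied little. Its brightest probe set read 306 in the array labelled WT normoxia, 311 in KD normoxia, 288 in WT hypoxia and 286 in KD hypoxia, which spans 0.12 on the log2 scale and is the narrowest range of the 9 probe sets that passed. The next one read 119, 147, 119 and 104 in the same order and spanned 0.44. Both were highest in KD normoxia and lowest in KD hypoxia, although for the brightest the arrays labelled hypoxia differed by -0.0096, a sign that turned under all 3 other scalings.

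HIF1AN (FIH), the asparaginyl hydroxylase, read 101 in the array labelled WT normoxia, 110 in KD normoxia, 92.8 in WT hypoxia and 81.7 in KD hypoxia. Its values spanned 0.37, and the largest of the 4 differences was labelled hypoxia minus normoxia in KD at -0.37. CITED2, the competitor for the coactivators, read 72.5, 92.3, 71.5 and 56.6 in the same order. The arrays labelled WT differed by 0.02 in CITED2, while KD normoxia lay 0.29 above WT normoxia and KD hypoxia 0.58 below KD normoxia.

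VHL gave readings that went apart. Its brighter probe set read 60.2 in the array labelled WT normoxia, 68.0 in KD normoxia, 57.9 in WT hypoxia and 51.5 in KD hypoxia. The dimmer one read 37.5, 52.9, 53.1 and 66.8 in the same order. The array labelled KD hypoxia was thus lowest in one and highest in the other, and no direction is given for VHL in hypoxia. Both were higher in KD than in WT in normoxia, by 0.14 and 0.37.

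**Figure D1:**
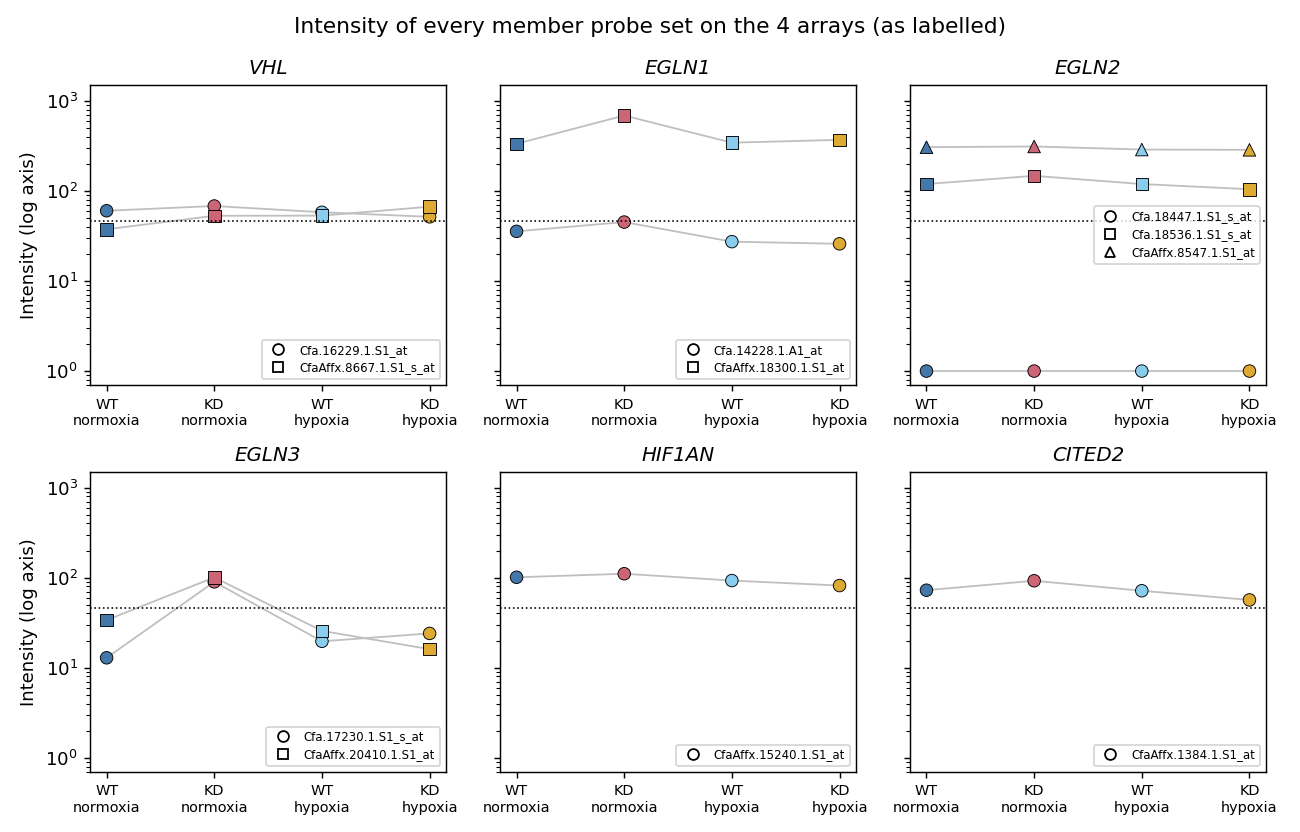
Intensity (log axis) of each member probe set on the 4 arrays, 1 value per array, with a symbol for each probe set and the floor of 46.3 as a dotted line. EGLN1 (686) and EGLN3 (89.8 and 101) stand out in the array labelled KD normoxia, while EGLN2, HIF1AN and CITED2 lie closer together and the VHL probe sets cross.

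Across the genes, the array labelled KD normoxia held the highest value for 9 of the 10 member probe sets whose values have an order, the exception being the dimmer VHL probe set. Over all 42924 probe sets this array was highest for 24.3%. The array labelled KD hypoxia was lowest for 7 of the 10, against 24.7% of all probe sets. In labelled KD minus WT in normoxia 10 of the 11 member probe sets were higher and 1, listed at 1 in every array, was tied. Among probe sets that passed the filter, 9 of the 9 of members and 47.3% of all were higher. The 9 include both EGLN3 probe sets, which passed through KD normoxia. The members share arrays, and several share a gene, so these counts describe the 4 arrays and are not independent readings.

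Set against a 2-fold difference, 3 member probe sets were at least 2-fold higher in KD than in WT in normoxia, EGLN1 and both of EGLN3, and 0 were lower. Of the 23652 probe sets that passed the filter, 1.44% were at least 2-fold apart in that comparison and 0.926% at least 2-fold higher. A difference as high as that of EGLN1 was reached by 0.905% of them. Both EGLN3 probe sets entered through the array in which they are high, with WT normoxia below the floor, so the count of 3 is not read against these shares. Where both arrays had to be above the floor, EGLN1 was the 1 counted of 6 member probe sets considered, against 0.955% of all such probe sets at least 2-fold apart. In labelled hypoxia minus normoxia in KD, both EGLN3 probe sets were at least 2-fold lower, with KD hypoxia below the floor, and 0 of 7 were counted where both arrays had to reach it. Of all probe sets that passed, 1.72% were at least 2-fold apart there and 0.977% lower. In labelled hypoxia minus normoxia in WT and in labelled KD minus WT in hypoxia, 0 members were 2-fold apart, against 1.35% and 0.985% of all probe sets.

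The difference of the responses, which is labelled hypoxia minus normoxia in WT minus the same in KD, was above 0 for 10 of the 11 member probe sets and 0 for the one listed at 1. It was 0.91 for EGLN1 and 0.29 for its dimmer probe set, which was below the floor throughout. It was 0.56 for CITED2, 0.44 and 0.03 for EGLN2, 0.27 and 0.11 for VHL and 0.27 for HIF1AN. The EGLN3 probe sets gave 1.70 and 1.61, but only KD normoxia reached the floor, so their size is not measured. That array enters the quantity with a plus sign, so their sign is favoured by how they passed the filter. Among probe sets that passed the filter, 9 of the 9 of members and 50.1% of all had a value above 0. The 9 include both EGLN3 probe sets. This quantity keeps its value if the arrays labelled KD normoxia and WT hypoxia change places. It has no test with 1 array per group.

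**Figure D2:**
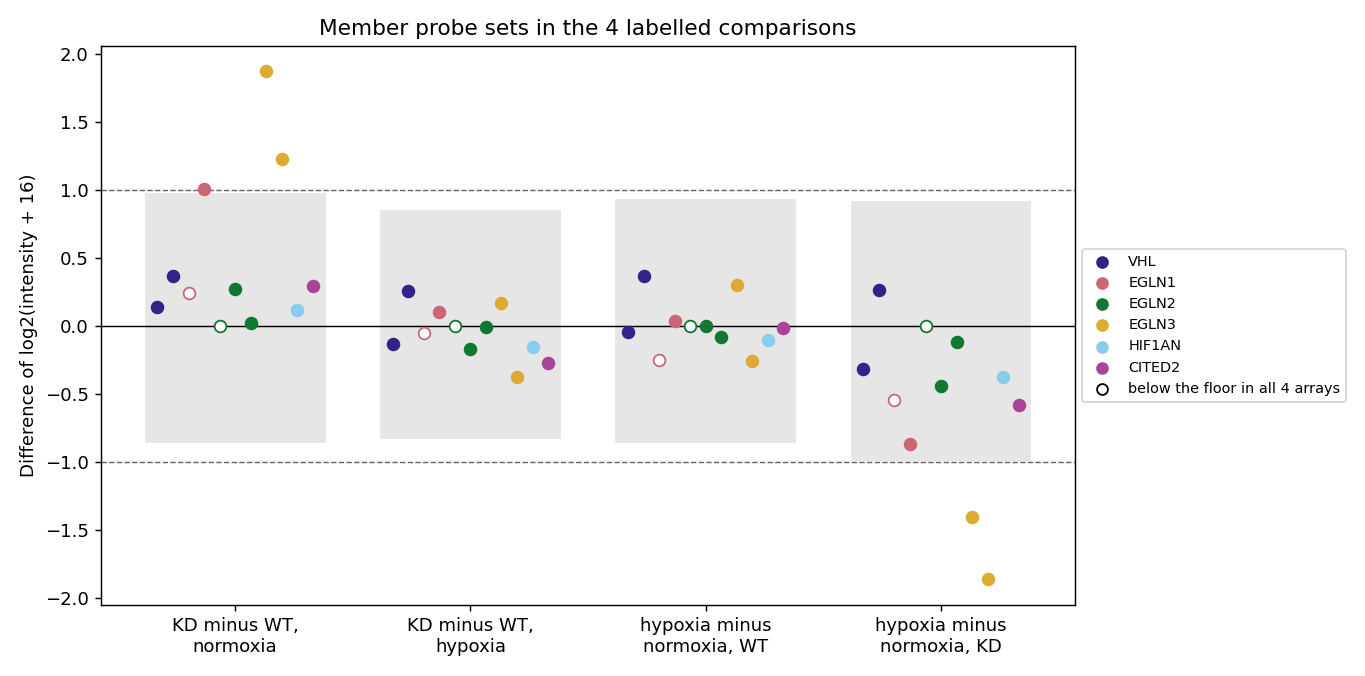
Differences of log2(intensity + 16) of the 11 member probe sets in the 4 labelled comparisons. Grey boxes run from the 1st to the 99th percentile of all probe sets that passed the filter, dashed lines mark 2-fold, and open symbols are probe sets below the floor in all 4 arrays. EGLN1 (1.01) and EGLN3 (1.87 and 1.23) lie at or above the 2-fold line in KD minus WT in normoxia, and EGLN3 (-1.40 and -1.86) below it in hypoxia minus normoxia in KD.

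The arrays allow 1 test, an additive limma model of the genotype and oxygen labels over all 4 arrays with Benjamini-Hochberg adjustment over the 23652 probe sets. Its variance comes mostly from other probe sets of like intensity and not from replicate cultures. In the genotype term EGLN1 rose by 0.55 (SE 0.16, limma adjusted p = 0.0432), the 1 call among the 9 member probe sets tested, where 9.1% of all probe sets were called. That share is near the background, and the call ended in 7 of 13 alternative settings, in which the limma adjusted p of EGLN1 ranged from 0.00444 to 0.404. It was lost, for example, without the prior's intensity trend, a setting in which limma called 0 probe sets in all for genotype. The EGLN3 probe sets were tested because KD normoxia alone reached the floor, so the size of their terms is not measured. Neither was called in either term in the main setting (lowest limma adjusted p = 0.0592), while each was called in some alternatives. In the hypoxia term 0 of the 9 were called, against 10.3% of all probe sets, and 2 of the 9, EGLN1 and the brighter EGLN3 probe set, had an unadjusted limma p under 0.05, a share near the 23.4% of all probe sets. EGLN1 had a hypoxia term of -0.41 (SE 0.16, limma adjusted p = 0.124). For HIF1AN, CITED2, EGLN2 and VHL the limma adjusted p was at least 0.384 in the hypoxia term and at least 0.407 in the genotype term, which does not show that their levels were equal. An additive term averages over the other label, so a value that is high in 1 array only is split between the terms and the residual.

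The other genes of the pathway are described by 1 probe set per gene, the one with the highest mean over the arrays. Over the 15115 genes so represented, the median difference in each comparison lay between -0.01 and 0.01. The rest of the VHL ligase (elongins, CUL2, the NEDD8 pathway and its ubiquitin-conjugating and deubiquitinating partners) differed little between the arrays. All 12 measured genes of 13 in that list were above the floor in every array, and 0 were 2-fold apart in any comparison. Their median difference was 0.04 between the normoxia arrays and -0.02 between the hypoxia arrays (KD minus WT). The largest single difference was that of UBE2D1, a ubiquitin-conjugating enzyme, at -0.39 for labelled hypoxia minus normoxia in KD. In limma 0 of the 12 were called in either term, with 1 unadjusted p under 0.05 in the hypoxia term and 0 in the genotype term.

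Of 20 genes that act on the hydroxylases or on HIF alpha turnover, 16 were measured and 15 tested. In the limma hypoxia term 3 rose and 1 fell, where 5.73% of the 9834 genes tested rose and 5.18% fell. SIAH1, a ubiquitin ligase that degrades EGLN proteins, fell by 0.52 (SE 0.14, limma adjusted p = 0.0222). It read 146 in the array labelled WT normoxia, 169 in KD normoxia, 102 in WT hypoxia and 107 in KD hypoxia, with both arrays labelled hypoxia below both labelled normoxia. OS9, RACK1 and the chaperone HSP90AB1 rose, by 0.31, 0.23 and 0.17. In the genotype term MCM7, a replication helicase subunit that binds HIF alpha, fell by 0.37 (SE 0.08, limma adjusted p = 0.0121), and 0 rose, beside 4.15% and 4.6% of all genes.

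Among the coactivators and relatives of CITED2, 5 of 7 genes were measured and 0 were called by limma in either term, also with 0 unadjusted p under 0.05. CREBBP, which encodes CBP, read 826 in the array labelled WT normoxia, 823 in KD normoxia, 739 in WT hypoxia and 719 in KD hypoxia. Its spread across the arrays was below 2-fold. Of the HIF subunits, HIF1A alone was called, in the hypoxia term. ARNT, the partner of all HIF alpha subunits, read 83.2, 107, 86.5 and 82.8 in the same order, highest in KD normoxia as most members were. EPAS1, which encodes HIF-2 alpha, read 54.2, 33.5, 39.2 and 62.6, near the floor.

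The hydroxylases consume 2-oxoglutarate and are inhibited by succinate and fumarate. Of 20 genes that make or use these metabolites or carry ascorbate, 18 were measured and 17 tested, and 0 were 2-fold apart in any comparison. IDH2, a mitochondrial enzyme that makes 2-oxoglutarate, rose by 0.33 in the genotype term (SE 0.06, limma adjusted p = 0.00451). It read 5056 in the array labelled WT normoxia, 6843 in KD normoxia, 5254 in WT hypoxia and 6126 in KD hypoxia, with both arrays labelled KD above both labelled WT. IDH1 had the largest difference of this list above the floor, 0.64 for labelled hypoxia minus normoxia in WT. It read 192.5, 308, 310 and 308 in the same order, low in WT normoxia alone, and was not called in either term. IDH3G, a subunit of another isocitrate dehydrogenase, fell by 0.31 in the hypoxia term (SE 0.09, limma adjusted p = 0.038). The succinate dehydrogenase genes SDHA to SDHD and FH, the fumarase, were not called in either term.

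HIF target genes other than the members were, like most members, mostly highest in the array labelled KD normoxia. Of 24 measured genes, 19 were highest in KD normoxia, where 26.4% of the 9834 genes tested were. PFKFB4, which did not pass the filter, is in the 24 and not in the 19. The list was chosen with earlier results of these data known, so its counts are descriptive and not independent of these arrays. Some of the 19 differed little. VEGFA read 2326 in the array labelled WT normoxia, 2428 in KD normoxia, 2281 in WT hypoxia and 2380 in KD hypoxia. CA9, which was not among the 19, stayed between 105 and 112. Of the 23 that passed, 11 were at least 2-fold higher in KD than in WT in normoxia (0.854% of all genes). Of these 11, BNIP3 was below the floor in WT normoxia, and 10 had both arrays above it, as EGLN1 had. In labelled KD minus WT in hypoxia, 4 of the 23 were at least 2-fold higher (0.519% of all genes), and the list had a median of 0.30. There EGLN1 was at 0.10, the EGLN3 probe sets, below the floor in both arrays, read 24.0 against 19.6 and 16.1 against 25.7, and CITED2 was at -0.27. The targets themselves varied in that comparison, from -0.34 (MXI1) to 1.72 (ANKRD37), and EGLN1 lay inside this range. The collagen prolyl hydroxylase P4HA1 read 335 in the array labelled WT normoxia, 1164 in KD normoxia, 347 in WT hypoxia and 649 in KD hypoxia, 0.88 above WT hypoxia on the log2 scale in the last. PFKFB3, a regulator of glycolysis, read 2148, 5420, 1944 and 2243 in the same order and, like EGLN1, lay close to the arrays labelled WT in KD hypoxia. In the limma genotype term 16 of the 23 rose and 0 fell, beside 4.6% and 4.15% of all genes. In the hypoxia term 1 (LOX) rose and 6 fell, beside 5.73% and 5.18%. Going from labelled normoxia to hypoxia, the 24 measured genes had a median change of -0.02 in WT and -0.37 in KD. Across the 6 that fell, this change ran from -0.02 (ALDOA) to -0.74 (BNIP3L) in WT. In KD it ran from -0.72 (ALDOA) to -1.93 (PDK1). Without the prior's intensity trend every limma call of these 6 gene lists ended except that of HIF1A in the hypoxia term (limma adjusted p = 0.0232).

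**Figure D3:**
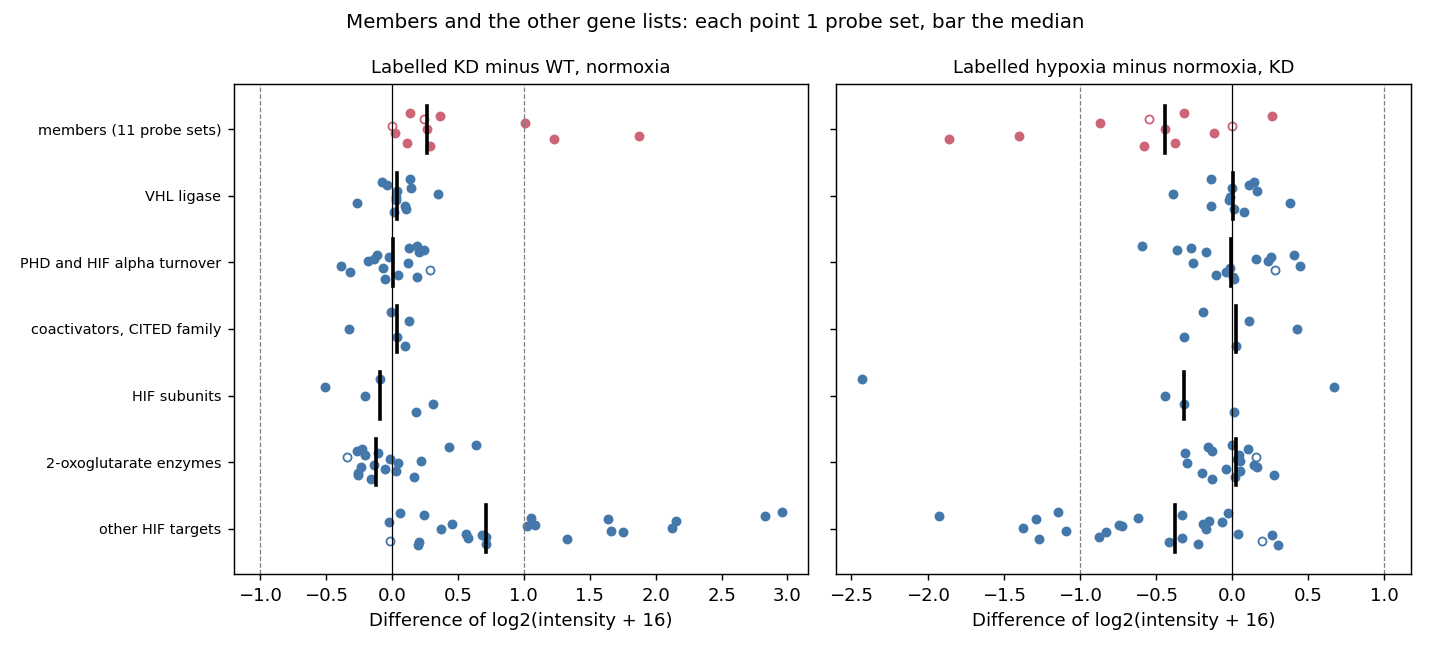
Differences of log2(intensity + 16) for the 11 member probe sets and for 1 probe set per gene of 6 related gene lists, in labelled KD minus WT in normoxia (left) and labelled hypoxia minus normoxia in KD (right). Points are probe sets, open where they did not reach the floor in any array, black bars are medians and dashed lines mark 2-fold. The members and the other HIF targets extend to the right on the left side, while the VHL ligase genes stay within 0.39 of 0 in both panels.

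EGLN1 was the 1 member above the floor in all arrays with a span of at least 1 on the log2 scale, and the genes with the most similar pattern over the 4 arrays were sought among 8282 other genes above the floor in every array. Likeness was the Euclidean distance between log2 values after each gene's mean was subtracted. The nearest were ABHD15 (distance 0.07), CSPG5 (0.12), C9H17orf99 (0.15), ALDOA (0.17) and ERO1A (0.17). ABHD15, an abhydrolase, read 90.6 in the array labelled WT normoxia, 194 in KD normoxia, 89.3 in WT hypoxia and 93.5 in KD hypoxia. ALDOA, the aldolase of glycolysis, read 4098, 8369, 4029 and 5059 in the same order, and ERO1A, an oxidase of disulfide formation in the endoplasmic reticulum, 1545, 2717, 1523 and 1719. Each of the 5 was highest in KD normoxia, which follows from their being chosen for likeness to EGLN1. With 4 arrays this rests on few points, and a gene near EGLN1 in this measure is one whose values had the same shape and size of difference.

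**Figure D4:**
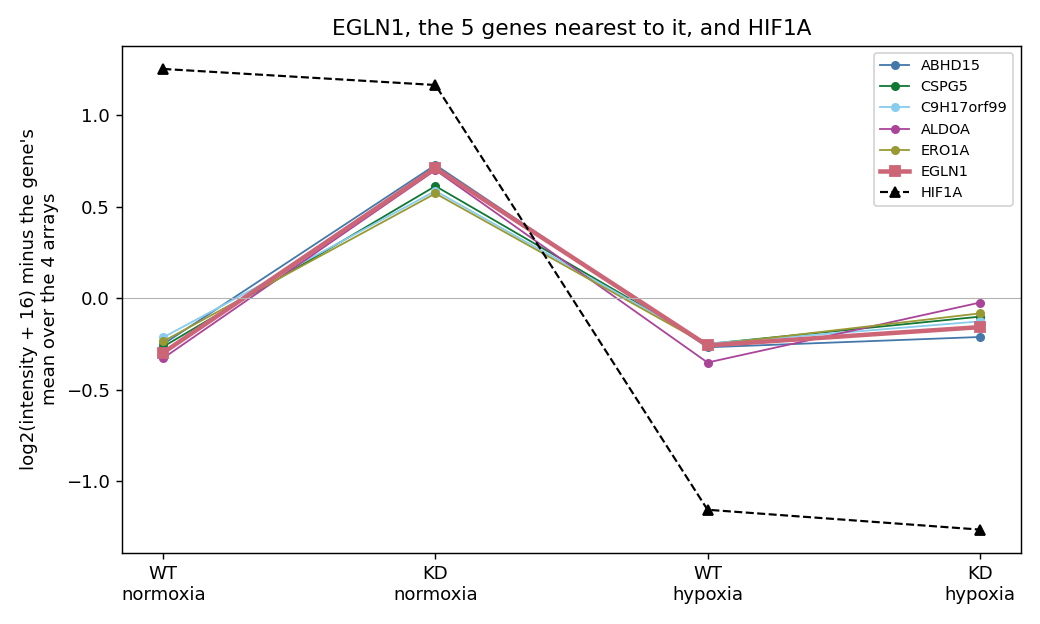
Values of log2(intensity + 16) minus each gene's mean over the 4 arrays, for EGLN1 (thick line), the 5 genes nearest to it and HIF1A (dashed). EGLN1 and its neighbours peak in the array labelled KD normoxia, while HIF1A is high in both arrays labelled normoxia and low in both labelled hypoxia.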

How the data were processed

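The deposited values are 1 intensity per probe set on a linear scale for each of the 4 arrays. The labels' protocols give biotinylated cRNA from 100 ng of total RNA. How these intensities were computed and scaled is not given in the sources used here. Their 2% trimmed means were nearly equal (310.5 to 314.9). Values were turned to log2(intensity + 16). The floor, applied to the highest of the 4 values, was the median of all log2 values, 5.96, and 23652 probe sets passed. Gene symbols came from the platform annotation, and all 11 member probe sets matched a RefSeq gene of that symbol by gene ID in a German Shepherd assembly, used for names only.

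Pairs of arrays were compared as values with a 2-fold threshold. The additive model was fitted with limma 3.58.1 in R 4.3.3 (lmFit, eBayes with an intensity trend, two-sided, adjusted p under 0.05), with 1 residual and 13.8 prior degrees of freedom. The steps were tested on simulated data. Alternatives were 3 scalings, 2 pseudocounts, 3 floors, 2 ways to combine probe sets, 2 thresholds, 2 priors, and, chosen after seeing the data, a floor in both or all arrays. Members and lists were chosen with earlier results of these data known. Named list genes were taken from the 6 per list with the largest difference above the floor. Called genes, CREBBP, BNIP3, MXI1, PFKFB3, EPAS1, VEGFA, CA9, the SDH genes and FH were named after their values were seen.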

Additional observations from a re-analysis of the deposited data

Results flagged for a closer look

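Several members had labelled differences of opposite sign between the groups. With 1 array per group this was not tested, and small values of opposite sign also arise from measurement error. Each value is the difference of the responses, WT minus KD, on the log2 scale. The response to labelled hypoxia had opposite signs in WT and KD cells for the brighter EGLN1 probe set (0.91), whose response in WT was only 0.04. The dimmer EGLN1 probe set, below the floor throughout, fell in both (-0.25 in WT and -0.55 in KD). Opposite signs were also seen for 1 EGLN3 probe set (1.70, with 3 of its 4 values below the floor) and for 1 EGLN2 probe set (0.44). Labelled KD minus WT had opposite signs in normoxia and hypoxia for the other EGLN3 probe set (1.61, with 3 of its 4 values below the floor), CITED2 (0.56), the same EGLN2 probe set (0.44), 1 VHL probe set (0.27), HIF1AN (0.27) and the brightest EGLN2 probe set (0.035). Of these, the opposite signs of the brightest EGLN2 probe set ended under all 3 other scalings. For the other EGLN2 probe set those of the hypoxia response ended with quantile normalization and cyclic loess.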

How the results depend on the processing

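The members' 2-fold counts were 0 for labelled hypoxia minus normoxia in WT and for labelled KD minus WT in hypoxia under every setting run. The count of 3 for labelled KD minus WT in normoxia became 1 with a floor at the 75th percentile and with both arrays above the floor. In these settings EGLN1 was the one left. The count also became 1 with a pseudocount of 64, the median over probe sets of a gene or a 3-fold threshold, and there EGLN3 was left. With a pseudocount of 64 EGLN1 stood at 0.92, under the 2-fold line. The count of 2 for labelled hypoxia minus normoxia in KD became 1 with a pseudocount of 64, the brightest probe set per gene, the median over probe sets or a 3-fold threshold. It became 0 with the floor at the 75th percentile or in both arrays. The limma count in the hypoxia term, 0, became 2 with quantile normalization or cyclic loess and 1 with median centring, a pseudocount of 64 or a floor at the 25th percentile. The brighter EGLN3 probe set was the gained call in each of these settings, joined by EGLN1 where the count was 2. The limma count in the genotype term, 1, became 2 with quantile normalization or a floor at the 25th percentile. The genotype count became 0 without a floor, with the floor at the 75th percentile or in all 4 arrays, and with 1 probe set or the median per gene. It was also 0 without the intensity trend and with a robust prior. The genotype term of HIF1AN, -0.02, turned to 0.013 with quantile normalization, 0.0090 with median centring and 0.018 with cyclic loess. For EGLN2, labelled KD minus WT in hypoxia of the brightest probe set, -0.0096, turned to 0.0011, 0.022 and 0.013 under the same scalings, and labelled hypoxia minus normoxia in WT of the next one, 0.00064, to -0.015 with quantile normalization and -0.011 with cyclic loess. A smaller set of tested genes or a higher floor changes what can be called by construction, and for the other settings the cause was not tested. No paired analysis was possible because each group has 1 array, and for the same reason no array could be left out.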
